A study of Mus musculus with 4 samples.

Results

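The 7 genes described here carry out antigen presentation by class II molecules of the major histocompatibility complex (MHC class II). They were chosen by symbol among the 32285 genes counted in mouse lung cells, and each of the 7 symbols matched exactly 1 counted gene. The list holds H2-Aa, H2-Ab1 and H2-Eb1, Cd74, H2-DMa and H2-DMb1, and Ciita. Lung cells of wild type C57BL/6 male mice were measured by scRNA-Seq in 4 libraries, with 1 library per group and the cells of 3 mice pooled in each. The groups were young nonventilated (2 to 3 months, naive), young ventilated (mechanical ventilation for 3 hours), aged nonventilated (22 months, naive) and aged ventilated. Besides the ventilator, the ventilated mice received anesthesia, analgesia, vascular lines and pure oxygen, which naive mice did not, so that "ventilated" stands for all of these together. The methods give a food-restricted diet for the mice aged to 22 months and name none for the young ones, so that any difference in diet cannot be told apart from age. What all 4 groups share is enzymatic digestion of the left lobe and storage of the cells in liquid nitrogen before the libraries were made.

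Class II molecules carry peptides from endocytosed proteins to the cell surface, where CD4 T cells read them. An alpha and a beta chain form the peptide groove: H2-Aa and H2-Ab1 encode the pair of the A molecule, and H2-Eb1 encodes the beta chain of the E molecule. Cd74 is the invariant chain, which fills the groove and guides the new molecule to the endosome, and H2-DMa and H2-DMb1 encode the DM dimer that exchanges the last piece of Cd74 for a peptide. Ciita is the transactivator that is recruited to the promoters of these genes and sets their transcription. Dendritic cells, B cells and macrophages are the classical carriers, while lung capillary endothelium and alveolar type II cells are known to carry class II as well.

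On GRCm38, H2-Aa lies at chr17:34282744-34287823 on the minus strand, and the other members of the cluster lie on the plus strand: H2-DMa at chr17:34119541-34139101, H2-DMb1 at chr17:34153072-34160230, H2-Ab1 at chr17:34257689-34269419 and H2-Eb1 at chr17:34305867-34316674. Ciita lies apart from them at chr16:10480059-10528418 on the plus strand. The promoters of class II genes share an X box, bound by RFX with a CREB-type element at its side, and a Y box, bound by NF-Y, and Ciita acts through the proteins on them. To show this feature, a stretch of the RefSeq promoter window (GRCm38.p6) was read for the A alpha and the E beta gene. Capitals mark, in order, the X box side and the Y box core GATTGG, 5′ to 3′ on the strand of the gene.
H2-Aa, chr17:34287855-34287909, minus strand: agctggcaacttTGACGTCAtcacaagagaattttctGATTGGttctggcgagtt
H2-Eb1, chr17:34305766-34305824, plus strand: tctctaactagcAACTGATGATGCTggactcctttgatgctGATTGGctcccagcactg
In H2-Aa, 17 bases separate the capitals and 43 bases lie between GATTGG and the start site. In H2-Eb1 the numbers are 16 and 54, where the first is counted from another motif than in H2-Aa. The window of H2-DMb1 holds the same AACTGATGATGCT as H2-Eb1, with 17 bases up to GATTGG, and its neighbour H2-DMb2 holds AACCGATGATGCT at the same spacing. No such pair was present in the windows of H2-DMa. The longest run of letters that the windows of H2-Eb1 and H2-DMb1 share, with N where H2-DMb2 differs, is AACNGATGATGCT. Both strands of all 32851 windows were searched without regard to overlap. GATTGG was present in 16.1% of them, TGACGTCA in 1.79% and AACNGATGATGCT in 0.0152%, which is 5 windows, those of H2-Eb1, H2-DMb1, H2-DMb2, Gm36553 and Slc39a10. The windows of H2-Eb1, H2-DMb1 and H2-DMb2 gave this last pattern, so their matches were fixed in advance. These matches describe letters in the reference and not binding in these cells.

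The counts held 15428 barcodes, of which 10160 were retained as cells, 2171 to 2976 per library, with 22814008 to 28010151 UMIs (unique molecular identifiers, 1 per captured transcript) and medians of 7871 to 9104 UMIs per cell. No more than 3 retained barcodes were shared by any pair of libraries. Clustering gave 36 clusters, and 33 of them were given class names from markers of lung and blood cells, written as "-like" because the names rest on markers alone. With each unnamed cluster counted as a class of its own, there were 27 classes. All class II genes were kept out of the clustering. The libraries stood apart by treatment in some classes. Most general capillary-like, nonclassical monocyte-like, classical monocyte-like and aerocyte-like cells lay in different clusters in the nonventilated and the ventilated libraries. Other clusters of these classes held cells of both treatments. An unnamed cluster of 673 cells drew 664 of them from the ventilated libraries. Values are given as counts per 1000000 UMIs of a class in a library (CPM), with an exact Poisson interval in the plot of levels, and ratios with an exact conditional binomial interval, all at 95%. With 1 pool per group no test is possible, and the intervals cover counting error only, not differences between mice or pools. A gene counted as past the fold when it differed at least 2-fold with an interval that leaves out 1, provided that its mean in the pair of libraries reached 50 CPM. Wherever 4 values follow each other, those of young mice come before those of aged mice, and at each age the nonventilated library comes before the ventilated one.

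The transcripts of the 7 genes were concentrated in few cells. Summed over the 7 genes, type 1 dendritic-like cells had the highest median level over the libraries, with 44959 CPM in young nonventilated, 53675 in young ventilated, 43596 in aged nonventilated and 48982 CPM in aged ventilated mice. Type 2 or migratory dendritic-like cells followed with 49442, 50372, 36288 and 43687 CPM in the same order of libraries, and then interstitial macrophage-like cells with 33172, 22641, 33993 and 38183 CPM. Next in the order were B cell-like cells with 15268, 13254, 15785 and 17267 CPM. These are small classes, with 34, 41, 49 and 34 type 1 dendritic-like, 32, 26, 30 and 24 type 2 or migratory dendritic-like, 52, 32, 50 and 43 interstitial macrophage-like, and 95, 37, 101 and 91 B cell-like cells.

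Below them, the classes lay close together. Alveolar type II-like cells, which make surfactant, were at 4174 and 5701 CPM in the young ventilated and aged nonventilated libraries, the pair that held at least 20 of these cells. Classical monocyte-like cells spanned 2215 to 6262 CPM, alveolar macrophage-like cells 1952 to 3980, general capillary-like cells 2264 to 2615, nonclassical monocyte-like cells 1257 to 2339 and venous endothelial-like cells 1311 to 1871. Aerocyte-like cells, the other capillary type of the alveolus, held only 216 to 439 CPM. In this order, the ranges over libraries were apart only between interstitial macrophage-like and B cell-like cells, between B cell-like and alveolar type II-like cells, and between venous endothelial-like and aerocyte-like cells. All other neighbours overlapped, so their order is not settled by these libraries.

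**Figure D1:**
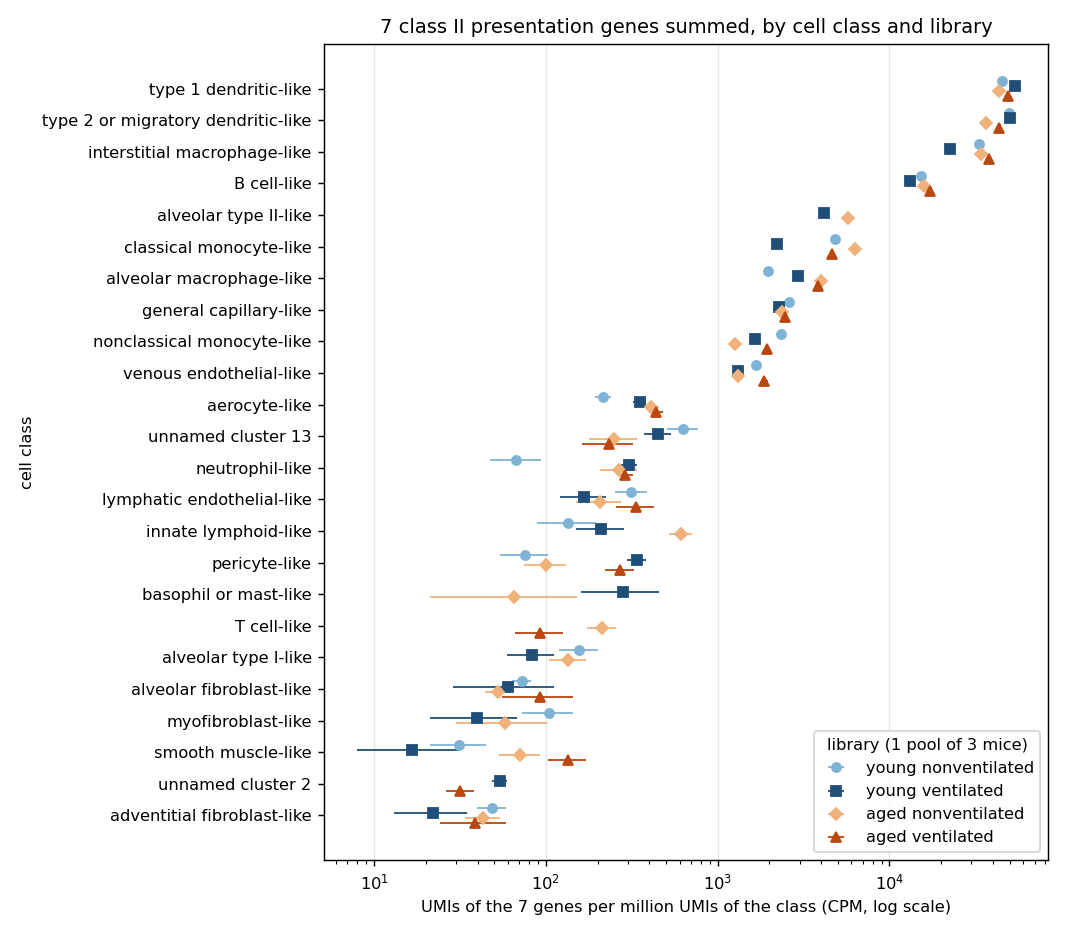
Summed level of the 7 genes in each cell class (CPM, log axis), ordered by the median over libraries, with 1 point per library that held at least 20 cells of the class and exact Poisson 95% bars. The dendritic-like and interstitial macrophage-like classes sit at or above 22641 CPM in all 4 libraries, while the aerocyte-like class lies at 216 to 439 CPM.

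The DM dimer and the transactivator followed another order of classes than the summed level. H2-DMa had medians over libraries of 981 CPM in type 1 dendritic-like, 488 in type 2 or migratory dendritic-like, 348 in interstitial macrophage-like, 277 in B cell-like and 168 in alveolar macrophage-like cells. For H2-DMb1 the medians were 1020, 430 and 414 CPM in the first 3 of these, but 113 CPM in B cell-like and 203 CPM in alveolar macrophage-like cells. H2-DMb1 and H2-DMb2 share 87.3% of 1157 aligned bases and an identical run of 221 bases, so reads from such stretches cannot be assigned to either. The gene bounds of H2-DMa, though not its exons, overlap those of Gm50336. That gene lies on the same strand, although the annotation gives its type as antisense. As a share of the UMIs of the 7 genes, the DM pair made up a median of 11.6% (9.13 to 17.2) in alveolar macrophage-like cells, against 4.15% (3.68 to 4.53) in type 1 dendritic-like and 2.19% (1.64 to 2.54) in interstitial macrophage-like cells. The ranges of alveolar macrophage-like cells and both of these classes were apart.

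Ciita was measured at a low level everywhere. Its medians were 117 CPM in B cell-like, 110 in type 2 or migratory dendritic-like, 104 in type 1 dendritic-like, 51.8 in interstitial macrophage-like, 36.1 in general capillary-like, 34.7 in classical monocyte-like and 33.8 CPM in alveolar type II-like cells. B cell-like cells thus held a Ciita level in the range of dendritic-like cells, with lower summed levels of the 7 genes in all 4 libraries. Alveolar macrophage-like cells held only 10.2 to 20.0 CPM of Ciita.

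Free RNA in droplets gives UMIs to cells that do not express a gene, so the share of cells with a UMI was compared with that in adventitial fibroblast-like cells after thinning each cell to 1000 UMIs. In these fibroblast-like cells, with medians of 15734 to 17313 UMIs per cell before thinning, 2.92%, 5.88%, 3.48% and 5.41% of cells held a UMI of any of the 7 genes in the 4 libraries. In general capillary-like cells, with medians of 6038 to 7208 UMIs, the shares were 76.6%, 68.3%, 75.9% and 72.7%. The class II transcripts of capillary-like cells were thus spread over most cells of the class and far above the fibroblast-like background. Across all retained cells the shares were 42.4%, 36.1%, 43.7% and 41.9%.

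Per library, type 1 dendritic-like cells held 24.7%, 39.3%, 32.1% and 28.0% of all UMIs of the 7 genes, with 1.34% to 1.98% of the cells. Type 2 or migratory dendritic-like cells held 24.5%, 22.1%, 14.7% and 15.2%, the second highest share in both young libraries. Interstitial macrophage-like cells held 17.0%, 7.57%, 15.3% and 18.0%, and B cell-like cells 9.84%, 3.94%, 11.9% and 14.3%. Interstitial macrophage-like and B cell-like cells were lowest in the young ventilated library, where they were also fewest as a share of cells, with 1.08% against 1.98% to 2.05% for interstitial macrophage-like and 1.24% against 3.75% to 4.19% for B cell-like cells. General capillary-like cells, 20.4% to 25.5% of the cells, held 6.27% to 10.7% of these UMIs.

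**Figure D2:**
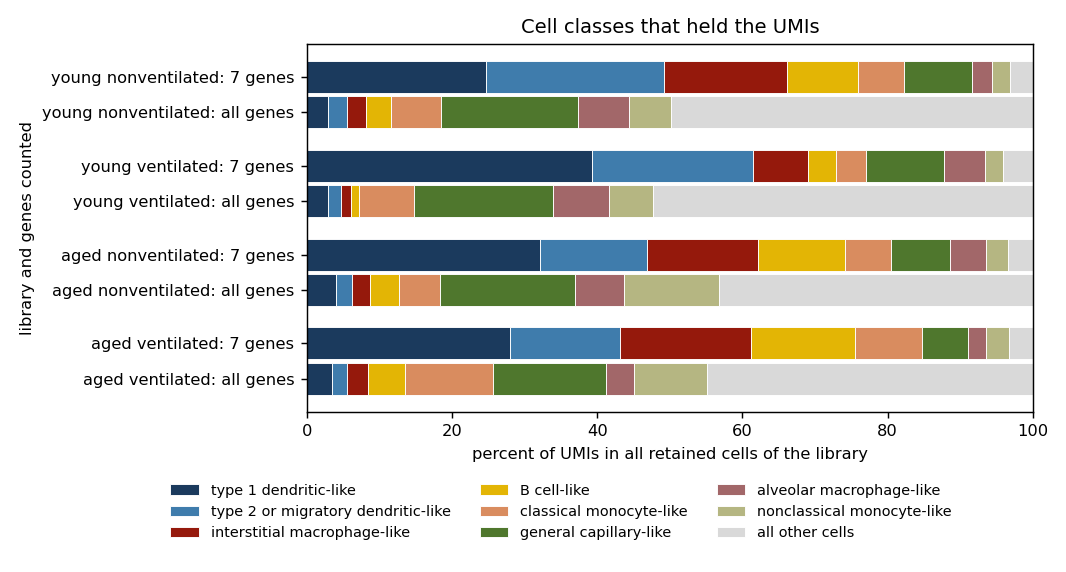
Share of the UMIs of the 7 genes and share of all UMIs (percent) held by each cell class, 1 stacked bar per library and measure. The dendritic-like, interstitial macrophage-like and B cell-like classes take up most of the class II bar and little of the bar of all UMIs.

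Over all retained cells, the summed level was 5251 CPM in young nonventilated, 4023 in young ventilated, 5434 in aged nonventilated and 6073 CPM in aged ventilated mice. The young ventilated library was the lowest of the 4, at 0.766 times its nonventilated counterpart (95% interval 0.760 to 0.772). In aged mice the ventilated library was 1.12 times the nonventilated one (1.11 to 1.13), a difference whose sign turned (log2 ratio -0.01) with the UMI limit taken over passing barcodes only. Between the ages, the ratio of aged over young was 1.03 (1.03 to 1.04) without and 1.51 (1.50 to 1.52) with ventilation.

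Class shares and levels within classes both differed between the libraries. Young nonventilated levels combined with the class shares of the young ventilated library gave 4143 CPM, while young ventilated levels with nonventilated class shares gave 4958, against 5251 and 4035 as measured over the 26 classes that the libraries share. For aged over young ventilated, young levels with the aged class shares gave 5309 CPM and aged levels with the young class shares 4353, against 4023 and 6073 measured. For ventilation in aged mice, nonventilated levels with ventilated class shares gave 5640 CPM and ventilated levels with nonventilated class shares 5994, against 5434 and 6073 measured. For age without ventilation, young levels with aged class shares gave 5702 and aged levels with young class shares 5061 CPM, against 5251 and 5453 measured. In aged mice the exchange of levels came closer to the ventilated library than the exchange of class shares, and in the other 3 contrasts the exchange of class shares came closer. The part of either in the sums was not tested.

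Gene by gene, the peptide-binding chains moved alike over all retained cells. H2-Aa had 887, 648, 946 and 1017 CPM, H2-Ab1 787, 582, 845 and 887 CPM, and H2-Eb1 771.5, 567, 796 and 892 CPM. Cd74, a gene of chromosome 18, had 2546, 2083, 2587 and 3065 CPM. In young mice the log2 ratios of ventilated over nonventilated were -0.45, -0.44 and -0.44 for the 3 chains and -0.29 for Cd74, and in aged mice 0.10, 0.07, 0.16 and 0.24. The aged values of H2-Aa and H2-Eb1 turned negative (-0.13 and -0.10) with the UMI limit over passing barcodes, and -0.13 and -0.03 with each cell thinned to 1000 UMIs.

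The peptide loading genes and the transactivator were lower in the ventilated library at both ages. H2-DMa had 117 and 57.8 CPM in young (ratio 0.492, 0.462 to 0.523) and 117 and 89.5 CPM in aged libraries (ratio 0.768, 0.725 to 0.813). H2-DMb1 had 108, 72.8, 113 and 99.5 CPM. Ciita had 33.9 and 11.6 CPM in young (ratio 0.344, 0.301 to 0.391) and 29.9 and 23.0 CPM in aged libraries (ratio 0.769, 0.686 to 0.862). Of the 6 members that reached 50 CPM, all but Ciita, 1 was past the fold with ventilation in young mice (H2-DMa, lower) and 0 in aged mice, against 12% and 7.1% of all genes tested. Without an upper limit on UMIs, H2-DMa fell short of 2-fold (log2 ratio -0.77). Between ages 0 of 6 members were past the fold in nonventilated and 0 in ventilated mice, against 0.504% and 2.18% of all genes. The members' median log2 ratio was -0.45 with ventilation in young and 0.09 in aged mice, beside medians of -0.02 and -0.07 over all genes.

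Dendritic-like cells, which carry antigen to T cells, kept high levels in all 4 libraries. In type 1 dendritic-like cells, named from 8 of 8 markers such as Xcr1 and Clec9a, H2-Aa had 7760, 9446, 7315 and 8358 CPM and Cd74 20541, 24187, 19677 and 22485 CPM. The sum was 1.19 times (1.18 to 1.21) in young and 1.12 times (1.11 to 1.14) in aged mice the nonventilated level. Ciita was at 118, 88.5, 132 and 89.6 CPM, lower in the ventilated library at both ages, with an interval that holds 1 in young (0.541 to 1.04) but not in aged mice (0.502 to 0.916). None of the 7 members was past the fold in either contrast (0 of 7 and 0 of 7), against 10.5% and 6.15% of all genes.

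In type 2 or migratory dendritic-like cells, the chains and the DM genes separated in young mice. The sum was 1.02 times (1.00 to 1.04) the nonventilated level with ventilation, and H2-Aa had 8492 and 8772 CPM. By contrast, H2-DMa was at 779 and 281 CPM (490 and 139 UMIs, ratio 0.361, 0.296 to 0.436) and Ciita at 145 and 56.6 CPM (91 and 28 UMIs, ratio 0.391, 0.246 to 0.603). Both were past the fold, 2 of 7 members, against 22.6% of all genes. In aged mice H2-DMa had 552 and 424 CPM and Ciita 108 and 112 CPM, with 0 of 7 past the fold against 8.45% of all genes. With the UMI limit taken over passing barcodes, where this class also took in 78 type 1 dendritic-like cells of 152, the young log2 ratios of H2-DMa and Ciita were only -0.23 and -0.35.

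Interstitial macrophage-like cells held all 8 of their markers in each library, and their class II level differed between the ages after ventilation. H2-Aa had 5895 CPM in young nonventilated, 3832 in young ventilated, 6324 in aged nonventilated and 6944 CPM in aged ventilated mice. The lowest of the 4 was the young ventilated library, and so it was for H2-Ab1 (4702, 3134, 4862 and 5587 CPM), H2-Eb1 (5777, 3532, 6070 and 6571 CPM) and Cd74 (15972, 11765, 15792 and 18244 CPM). The sum was 0.683 times the nonventilated level in young (0.666 to 0.700) and 1.12 times in aged mice (1.1 to 1.14), and 1.69 times higher in aged than in young ventilated mice (1.65 to 1.73).

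DM and transactivator transcripts were lower with ventilation in these macrophage-like cells of young mice. H2-DMa had 356, 170, 427 and 341 CPM and H2-DMb1 391, 202, 437 and 471 CPM in the 4 libraries. Ciita had 80.1, 5.31, 79.1 and 24.5 CPM, which are 52, 2, 47 and 16 UMIs. Ciita was thus lower in the ventilated library at both ages, at a ratio of 0.0663 in young (0.00783 to 0.252) and 0.310 in aged mice (0.164 to 0.556), while the chains were lower in young mice alone. Past the fold were 1 of 6 members in young (H2-DMa) and 1 of 7 in aged mice (Ciita), against 22.9% and 10.9% of all genes. Between ages there were 0 of 7 in nonventilated and 1 of 6 in ventilated mice (H2-DMb1, higher in aged), against 5.27% and 9.2%. The calls of Ciita and H2-DMb1 fell short of 2-fold without an upper limit on UMIs (-0.58 and 0.44 on the log2 scale) and at a resolution of 0.5 (-0.58 and 0.62), where dendritic-like cells joined the class.

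These means hid a split among the interstitial macrophage-like cells. The median cell held 32075, 6474, 34683 and 25651 CPM of the 7 genes in the 4 libraries, and 36 of 52 (69.2%), 15 of 32 (46.9%), 39 of 50 (78.0%) and 33 of 43 cells (76.7%) reached 10000 CPM. In the young ventilated library 3 cells held 43.7% of the class's UMIs of these genes, against 16% to 24.7% elsewhere, and without the 3 highest cells of each library, a step added after seeing the data, the young log2 ratio of the sum went from -0.55 to -1. Dendritic markers moved as well: the summed type 2 dendritic list stood at 733, 433, 580 and 783 CPM, with 8, 4, 7 and 8 of 8 markers present, and Cd209a, Flt3, Kmo and Cd209d were at 0 in the young ventilated library. B cell markers summed to 154, 13.3, 113 and 21.4 CPM, with Ms4a1, Ighd and Fcmr at 0 in both young and the aged ventilated libraries. The part of such cells in the result was not tested. Without an upper limit on UMIs, where the class took in 111 dendritic-like cells among 323, the young log2 ratio of the sum was 0.02 and that of H2-Aa between ages in ventilated mice 0.07 in place of 0.86. With the UMI limit over passing barcodes, the aged log2 ratio of the sum turned from 0.17 to -0.16.

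B cell-like cells held the chains at levels that differed by less than 2-fold among the 4 libraries. H2-Aa had 2541, 2030, 2692 and 2760 CPM and Cd74 8329, 7457, 8218 and 9357 CPM, with the young ventilated library lowest in both. Their sum was 0.868 times the nonventilated level in young (0.839 to 0.898) and 1.09 times in aged mice (1.07 to 1.12). H2-DMa, at 288, 173, 266 and 318 CPM, and Ciita, at 114, 92.5, 120 and 156 CPM, were lowest in the young ventilated library as well. With ventilation, 0 of 7 members were past the fold in young and 0 of 7 in aged mice, against 12% and 3.7% of all genes. The class was mixed, as the plasma cell markers Jchain and Igha were among its 10 leading genes. Cells at 10000 CPM or more were 83 of 95, 22 of 37, 83 of 101 and 77 of 91 in the 4 libraries. The part of plasma cells in these levels was not tested.

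Alveolar macrophage-like cells, the resident phagocytes of the airspace, had members past the fold between the ages and none with ventilation. H2-Aa had 364 CPM in young nonventilated, 564 in young ventilated, 815 in aged nonventilated and 832 CPM in aged ventilated mice. H2-Ab1 had 262, 473, 610 and 559 CPM, H2-Eb1 169, 254, 400 and 373 CPM, and Cd74 808, 1300, 1669 and 1689 CPM. The young nonventilated library was lowest for each of these genes, and both aged libraries were above both young ones. Aged over young nonventilated, the ratios were 2.24 for H2-Aa (2.03 to 2.47), 2.33 for H2-Ab1 (2.08 to 2.61), 2.37 for H2-Eb1 (2.06 to 2.73) and 2.07 for Cd74 (1.94 to 2.21). These 4 of 6 members were past the fold, against 1.38% of all genes, while H2-DMa stood at 186 and 175 CPM (ratio 0.946, 0.804 to 1.11). H2-DMb1 was higher in the aged library, 151 and 290 CPM (ratio 1.92, 1.65 to 2.24).

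Ventilated libraries of alveolar macrophage-like cells were closer to each other, with 0 of 6 members past the fold between ages against 2.14% of all genes. The sum was 1.51 times the nonventilated level in young (1.44 to 1.57) and 0.959 times in aged mice (0.920 to 1.00), with 0 of 6 and 0 of 6 members past the fold against 9.8% and 3.16%. Median cells held 1576, 1619, 3615 and 3101 CPM, so that the young medians with and without ventilation lay close together. The type 2 dendritic markers summed to 2.93 to 7.75 CPM here and the B cell markers to 1.76 to 3.04 CPM, with Cd209a, Cd209d and Pax5 at 0 in all 4 libraries. The sums of type 1 dendritic and interstitial macrophage markers are not given here, and the part of other carriers in the result was not tested. Over all alternatives the aged over young nonventilated log2 ratio of the sum lay between 0.69, without an upper limit on UMIs, and 1.16, against 1.03. In that first setting all 4 members past the fold kept their direction but stood at 0.65 (H2-Ab1) to 0.92 (H2-Eb1) on the log2 scale, short of 2-fold. The class held 667 cells there against 356 in the main setting, with 353 in common. The upper limits thus left many cells of this class out of the main values.

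**Figure D3:**
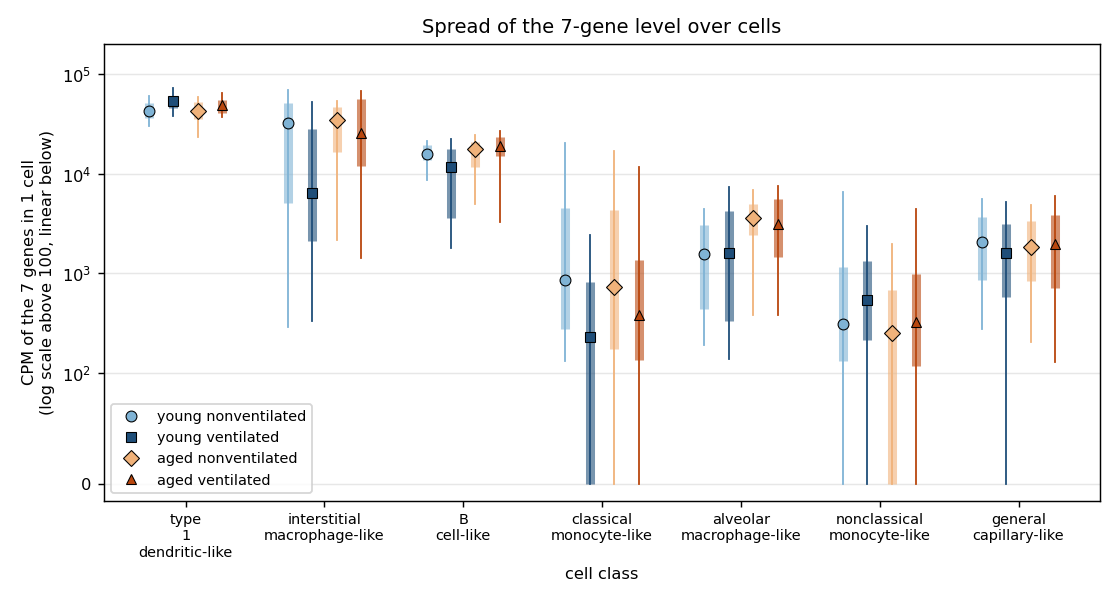
CPM of the 7 genes per cell in selected classes and each library (symmetrical log axis), with the median as a marker, the 25th to 75th percentile as a thick line and the 10th to 90th as a thin line. In alveolar macrophage-like cells both aged medians (3615 and 3101 CPM) lie above both young ones (1576 and 1619 CPM), and the interstitial macrophage-like median of the young ventilated library (6474 CPM) lies below the other 3.

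Classical monocyte-like cells, which can take up antigen and mature in tissue, held lower levels of all 7 members in the ventilated than in the nonventilated library at each age. H2-Aa had 780, 263, 1181 and 777 CPM, H2-Ab1 675, 264, 987 and 684 CPM and H2-Eb1 395, 188, 665 and 537 CPM. Cd74 had 2496, 1415, 2992 and 2458 CPM. The young ventilated library was the lowest for each of them, and the aged nonventilated library the highest. For H2-Aa the ratio was 0.337 in young (0.304 to 0.372) and 0.658 in aged mice (0.616 to 0.702), and for Cd74 0.567 (0.541 to 0.594) and 0.822 (0.790 to 0.854).

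The DM genes showed the larger ratios in this class. H2-DMa had 227 and 34.9 CPM in young (ratio 0.153, 0.118 to 0.197) and 197 and 58.3 CPM in aged libraries (ratio 0.295, 0.241 to 0.360). H2-DMb1 had 165 and 28.8 CPM in young and 192 and 75.9 CPM in aged libraries. Ciita had 56.5, 22.2, 46.8 and 22.7 CPM, so that its ventilated levels were alike at both ages. Past the fold with ventilation were 5 of 6 members in young, all but Cd74 of those tested, and 2 of 6 in aged mice, H2-DMa and H2-DMb1, all lower, against 19.6% and 23.2% of all genes. Between ages, 0 of 7 were past the fold in nonventilated and 4 of 5 in ventilated mice, the 3 chains and H2-DMb1, higher in aged, against 1.53% and 1.7% of all genes. The aged over young ventilated ratio of H2-Aa was 2.96 (2.69 to 3.25). In thinned cells, H2-DMb1 in aged mice fell short of 2-fold (log2 ratio -0.56) and H2-Eb1 in aged mice turned to 0.06 from -0.31. H2-Eb1 in young mice was short of 2-fold (-0.91 against -1.07) with the UMI limit over passing barcodes.

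Few monocyte-like cells carried these values. Cells at 10000 CPM or more were 20 of 110 (18.2%), 9 of 202 (4.5%), 23 of 142 (16.2%) and 20 of 172 (11.6%), and they held 75.8%, 70.1%, 76.6% and 82.9% of the class's UMIs of the 7 genes. The median cell held 852, 232, 737 and 386 CPM, lower in the ventilated library at both ages. Without the 3 highest cells of each library, the young log2 ratio of the sum went from -1.11 to -1.67. Type 2 dendritic markers summed to 164, 102, 156 and 93.2 CPM with 7 to 8 of 8 markers present, and neutrophil markers to 241, 1364, 258 and 1589 CPM, so both lists moved with ventilation. Their part in the result was not tested. Most cells of the class lay in different clusters by treatment, and 6, 92, 54 and 28 of them lay in a cluster of few UMIs per cell.

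Nonclassical monocyte-like cells, which patrol the vessel wall, held a summed level of 2339, 1656, 1257 and 1945 CPM, lower with ventilation in young and higher in aged mice. The median cell, at 314, 542, 253 and 326 CPM, was higher with ventilation at both ages, against the direction of the sum in young mice. Cells at 10000 CPM or more were 11 of 144, 4 of 184, 5 of 343 and 8 of 198, and they held 61.0%, 33.5%, 38.2% and 49.4% of the class's UMIs of the 7 genes. H2-Aa had 347, 164, 186 and 232 CPM, H2-Eb1 185, 66.3, 105 and 145 CPM and Cd74 1427, 1237, 775 and 1301 CPM. The young nonventilated library was the highest of the 4 for each of them. With ventilation, H2-Eb1 was 0.358 times in young (0.285 to 0.448) and 1.38 times in aged mice (1.18 to 1.61) the nonventilated level, and Cd74 0.866 (0.815 to 0.922) and 1.68 times (1.59 to 1.77). H2-DMa was lower with ventilation at both ages, with 60.6, 11.1, 30.3 and 13.2 CPM. Of 4 members tested, 2 were past the fold in young (H2-Aa and H2-Eb1, lower) and 0 in aged mice, against 19.4% and 13.6% of all genes. Between ages there were 0 of 4 in nonventilated and 1 of 4 in ventilated mice (H2-Eb1, higher in aged), against 1.62% and 1.12%. Neutrophil markers summed to 795, 1027, 288 and 4149 CPM in this class, and their part in the result was not tested. Without the 3 highest cells of each library the young log2 ratio of H2-Eb1 went from -1.48 to -3.03, and scaled by the median of gene ratios that of H2-Aa was -0.96, short of 2-fold.

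General capillary-like cells were the largest class, with 647, 748, 576 and 443 cells, and here Cd74 and the other members went in opposite directions. Cd74 had 1306 CPM in young nonventilated, 1514 in young ventilated, 1226 in aged nonventilated and 1617 CPM in aged ventilated mice, higher with ventilation by 1.16 times in young (1.12 to 1.20) and 1.32 times in aged mice (1.27 to 1.37). H2-Aa had 382, 251, 335 and 271 CPM, H2-Ab1 391, 229, 335 and 233 CPM and H2-Eb1 314, 177, 281 and 215 CPM, each lower with ventilation at both ages. The sum therefore showed little, at 0.866 times in young and 1.04 times in aged mice.

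Loading genes and transactivator were lower too, though H2-DMb1 only slightly in aged mice. H2-DMa had 61.8, 23.8, 61.7 and 24.9 CPM, with ratios of 0.384 in young (0.309 to 0.475) and 0.404 in aged mice (0.314 to 0.515), and H2-DMb1 89.4, 51.6, 82.9 and 74.7 CPM. Ciita had 71.0, 17.0, 48.2 and 24.1 CPM, which are 325, 91, 218 and 85 UMIs, with ratios of 0.240 in young (0.188 to 0.303) and 0.499 in aged mice (0.384 to 0.644). The ventilated libraries were the lowest for H2-DMa and Ciita. Cd74 made up 1.20, 2.30, 1.29 and 2.25 UMIs for each UMI of the 3 chains. H2-DMa and Ciita did not reach a mean of 50 CPM with ventilation, so that 5 members were tested and 0 of 5 were past the fold at each age, against 19.3% and 11.1% of all genes. With age it was 0 of 7 in nonventilated and 0 of 5 in ventilated mice, against 0.242% and 3.47%. Over the alternatives, the log2 ratio of Ciita ranged from -2.15 to -1.91 in young and from -1.20 to -0.61 in aged mice. With all cells weighted alike, H2-Eb1 in aged mice turned to 0.09 from -0.39, and H2-DMa stood at -0.67 in place of -1.30. The nonventilated cells lay mainly in another cluster than the ventilated ones. B cell markers summed to only 2.99 to 4.81 CPM in this class, and type 2 dendritic markers to 113, 75, 153 and 104 CPM. The part of dendritic-like cells in the result was not tested.

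In venous endothelial-like cells Ciita was lower with ventilation at both ages and Cd74 higher in aged mice. Cd74 had 799, 839, 695 and 1176 CPM, with a ratio of 1.05 in young, whose interval holds 1 (0.944 to 1.17), and 1.69 in aged mice (1.53 to 1.87), and 1.07, 2.05, 1.37 and 1.91 UMIs for each UMI of the chains. Ciita had 25, 3, 22 and 5 UMIs, with ratios of 0.168 in young (0.0325 to 0.551) and 0.181 in aged mice (0.0537 to 0.491). H2-Aa had 289, 163, 185 and 244 CPM, H2-Ab1 235, 137, 188 and 197 CPM and H2-Eb1 221, 110, 135 and 174 CPM, each lower with ventilation in young mice and above the nonventilated level in aged mice, where the interval of H2-Ab1 holds 1. Of 4 members tested 0 were past the fold in young and 0 in aged mice, against 18.8% and 11.9% of all genes.

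**Figure D4:**
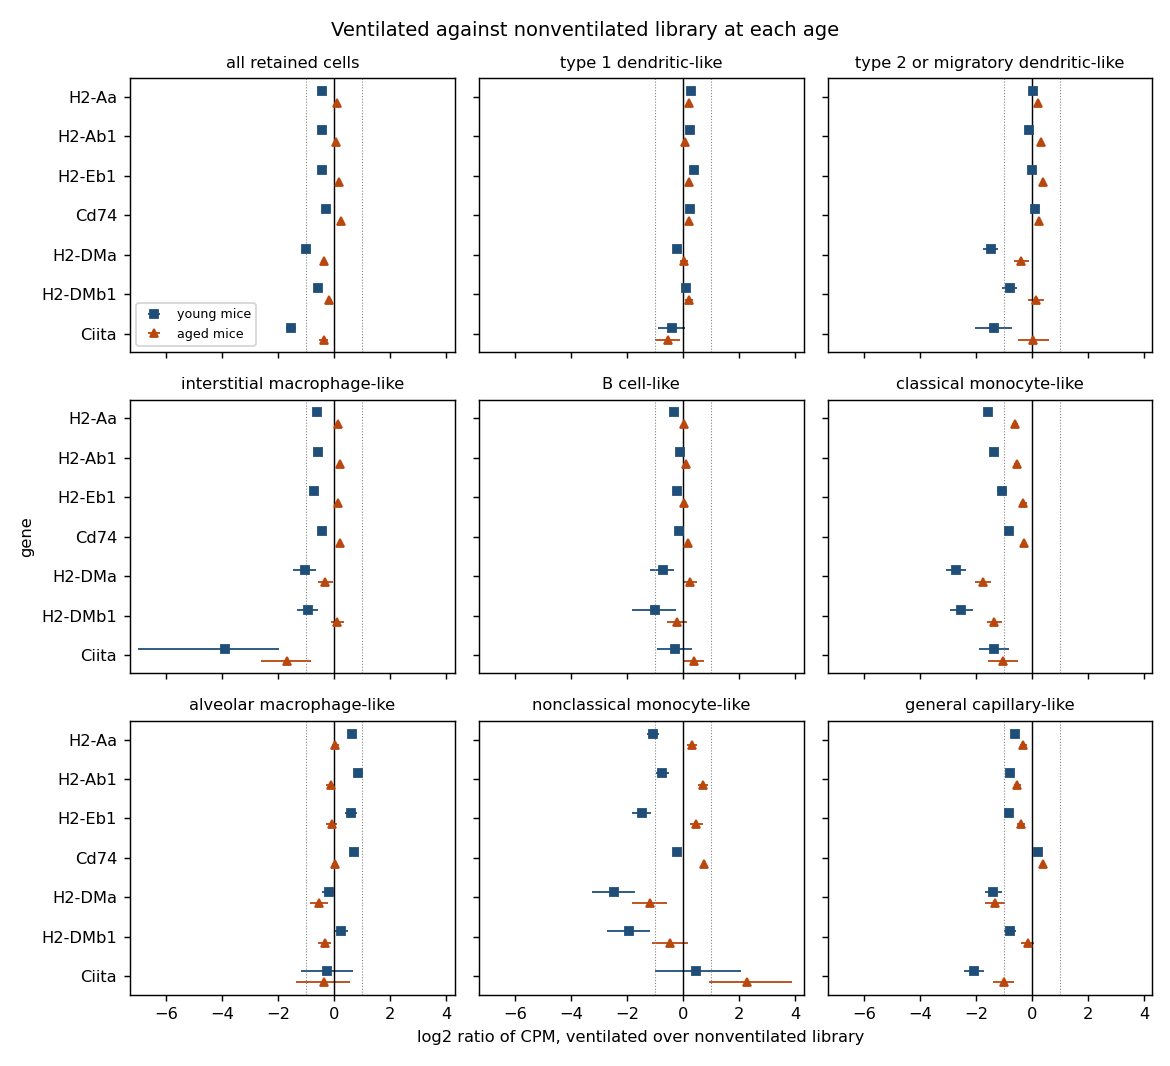
Log2 ratio of ventilated over nonventilated CPM for each member in 9 cell groups, young as squares and aged as triangles, no UMI added, with exact 95% counting intervals and dotted lines at 2-fold. In general capillary-like cells Cd74 lies to the right of 0 and the other 6 members to the left at both ages. Of these, aged H2-DMb1 lies only slightly to the left, and aged H2-Eb1 turned to 0.09 with all cells weighted alike. In classical monocyte-like cells all 7 members lie to the left at both ages (aged H2-Eb1 turned to 0.06 in thinned cells and aged Cd74 to 0.01 with cells weighted alike).

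Other genes of the pathway were taken from a list of 45, of which 41 were among the counted genes. Over all retained cells, 1 of the 22 that reached 50 CPM was past the fold with ventilation in young mice and none in the other 3 contrasts, against 12%, 7.1%, 0.504% and 2.18% of all genes. It was Cd274, the ligand of the inhibitory receptor PD-1, at 45.2 and 200 CPM. Class II accessory genes were all under 50 CPM. H2-DMb2, another DM beta gene, had 18.9, 7.39, 24.3 and 27.1 CPM. H2-Oa and H2-Ob, which form the DO dimer that restrains DM, had 12.1, 4.64, 15 and 18.0 CPM and 20.1, 5.53, 20.8 and 19.9 CPM, and H2-Eb2 had 2.56, 2.18, 6.39 and 9.51 CPM. For these 4 genes the young ventilated library was the lowest, as it was for all 7 members, though H2-Eb2 hardly differed between the young libraries.

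Cd274 was past the fold in several carriers with ventilation in young mice. It had 23.0 and 124 CPM in type 1 dendritic-like, 63.6 and 243 in type 2 or migratory dendritic-like, 5.41 and 198 in classical monocyte-like, 138 and 629 in nonclassical monocyte-like, 58.1 and 259 in general capillary-like and 36.8 and 107 CPM in venous endothelial-like cells. In aged mice it was past the fold in type 1 dendritic-like cells (19.5 and 143 CPM) and classical monocyte-like cells (30.4 and 141 CPM). Between ages, Cd274 was lower in aged than in young ventilated general capillary-like cells (52.9 and 259 CPM) and higher in aged than in young nonventilated nonclassical monocyte-like cells (289 and 138 CPM). With ventilation in young mice, Cd274 thus stood higher in several classes where Ciita and H2-DMa stood lower.

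The lysosomal proteases and the reductase Ifi30 prepare the peptides. In classical monocyte-like cells 6 of 22 listed genes were higher and 0 lower with ventilation in young mice, where 19.6% of all genes were past the fold in either direction, among them the cathepsins Ctsd (108 and 351 CPM) and Ctsz (346 and 1052). In aged mice 5 were higher and 1 lower of 22, against 23.2% of all genes, with Ctsl at 82.4 and 381 CPM, Mif, a ligand of Cd74, at 45.3 and 212 CPM and Cd83 at 291 and 80.6 CPM. Cd83, which keeps class II on the surface, was also higher in aged than in young nonventilated cells of this class (291 and 139 CPM). Nonclassical monocyte-like cells had 3 higher and 1 lower of 20 in young and 3 higher and 0 lower of 21 in aged mice, against 19.4% and 13.6% of all genes, with Ctsd at 105 and 530.2 CPM in young and 132 and 539.7 CPM in aged mice. Ctsz had 275 and 863 CPM in young and 367 and 816 CPM in aged mice, and Ifi30 64.4 and 195 CPM in aged mice. The counts of listed genes in both monocyte-like classes lay near these shares of all genes.

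Listed genes of both directions were past the fold among the other carriers. In several of these classes the counts lay near or below the share of all genes given beside them. Type 1 dendritic-like cells had 3 higher and 3 lower of 23 in young and 2 higher and 1 lower of 21 in aged mice, against 10.5% and 6.15% of all genes, with Pdcd1lg2, the other PD-1 ligand, at 0 and 102 CPM in young mice and the adhesion receptor Cd44 at 1211 and 564 CPM in aged mice. Type 2 or migratory dendritic-like cells had 4 higher and 2 lower of 22 in young mice, where Cd44 had 1465 and 499 CPM, and 0 higher and 3 lower of 26 in aged mice, which were H2-Ob at 74.8 and 27 CPM, the costimulatory ligand Icosl at 80.4 and 31.2 CPM and Irf4 at 127 and 56.2 CPM, against 22.6% and 8.45% of all genes. In interstitial macrophage-like cells, Irf8 (208 and 93 CPM) and March1, a ligase that removes class II from the surface (78.5 and 34.5 CPM), were the 2 lower of 21 in young mice, while in aged mice March1 was higher (58.9 and 121 CPM) and Creb1, a factor that binds next to the X box, lower (183 and 82.6 CPM), each 1 of 21, against 22.9% and 10.9% of all genes. March1 was also higher in aged than in young ventilated cells of this class (121 and 34.5 CPM). B cell-like cells held March1 at 656 and 182 CPM with ventilation in young mice, 1 lower beside 5 higher of 28, which included the costimulatory ligand Cd80 (35.4 and 122 CPM) and its inhibitory receptor Ctla4 (8.56 and 161 CPM), and Ctla4 was the 1 higher of 27 in aged mice (37.2 and 80.1 CPM), against 12% and 3.7% of all genes. General capillary-like cells had 2 higher of 11 in young mice, Cd274 and Irf8 (22.3 and 91.1 CPM), and in aged mice Irf8 higher (33.4 and 94.3 CPM) and Irf1, a factor of the class II transactivator's interferon-driven promoter, lower (939.9 and 430.3 CPM), 2 of 10, against 19.3% and 11.1% of all genes. In alveolar macrophage-like cells, Cd80, a costimulatory ligand, was lower at both ages (211 and 91.7 CPM in young, 172 and 68.6 CPM in aged mice), with 1 higher and 2 lower of 22 in young and 1 lower of 22 in aged mice, against 9.8% and 3.16% of all genes. The others in young mice were March1 (136 and 312 CPM) and Cd86 (170 and 75 CPM). In venous endothelial-like cells of aged mice, Irf1 (876 and 358 CPM) and Creb1 (223 and 91.7 CPM) were the 2 lower of 10, against 11.9% of all genes.

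Genes with the pattern closest to the members were found by the Pearson correlation of log2(CPM + 10) over 79 points, each a class in a library with at least 20 cells, against the mean of the 6 members other than Ciita. Among 4103 genes the 10 with the highest r were Cd83 (0.869), Ifi30 (0.850), Syngr2 (0.833), Cd86 (0.832), Pkib (0.826), Erp29 (0.796), Ly86 (0.794), Gdi2 (0.785), Tm6sf1 (0.776) and Ucp2 (0.765). The members correlated with each other at r of 0.870 (H2-DMb1 and Ciita) to 0.990 (H2-Aa and H2-Ab1). The points share libraries and cells, so r is a description with no test.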

How the data were processed

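Cells of the left lung lobe were measured with a 3′ droplet kit. Per the submitters' processing notes the authors used Cell Ranger 7.0.0 with the mm10 build, a version that by default also counts reads in introns, and deposited a matrix of raw UMI counts for each library, in whole numbers and not normalized. No column was left unmapped.

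Barcodes were retained when they held 200 to 5000 genes, no more than 10% of UMIs from mitochondrial genes and no more than 28597 UMIs in all (the 93rd percentile over all barcodes, which left cell numbers nearer to those of the study in each library than the percentile over passing barcodes, 21021). Scrublet (scanpy 1.11.5) marked only 38 cells (0.374%) and had not worked, so doublets were limited by the upper bounds alone. Counts were scaled to 1000000 per cell and clustered with Seurat 5.3.0 (SeuratObject 5.2.0, Matrix 1.6.5, R 4.3.3) on 2000 variable genes without any H2 class II gene, 37 principal components and a resolution of 1. A cluster was named where at least 3 markers of a class were found in at least 20% of its cells and its 10 leading genes did not go against the name. UMIs were summed per class and library with Python 3.11.15, numpy 2.4.6, scipy 1.17.1, pandas 2.3.3 and drawn with matplotlib 3.10.9. Log2 ratios have 1 UMI added to each sum, so that they are closer to 0 than the ratios where counts are low. Contrasts within a class needed at least 20 cells in each library, and counts of 0 are read against a floor of 3 counts.

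The members, lists and settings were chosen with earlier results of these data known. The genes named are the members, the accessory genes, listed genes past the fold over all retained cells, and in each class described the 3 listed genes with the largest ratios past the fold; some genes that this rule or the marker lists hold are not reported here by name. Positions come from GENCODE M21, matched by identifier for 32158 of 32285 genes (99.6%), and promoter windows from RefSeq (GRCm38.p6); both are the build of mm10. The intervals were tested on simulated data that held counting error alone, which says nothing about differences between mice, pools or cells. The alternatives varied the cell limits, cluster resolution, scaling, weighting, depth, background RNA and doublets.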

Additional observations from a re-analysis of the deposited data

Results flagged for a closer look

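Flagged here are sums and members that went one way with ventilation in young and the other way in aged mice. At both ages the interval had to leave out 1 and the mean to reach 50 CPM. Members that changed direction without meeting this rule are not listed. With 1 pool of 3 mice per group, none of these differences was tested. Each value is the log2 ratio of ventilated over nonventilated in aged minus that in young mice.

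Over all retained cells, H2-Aa differed by 0.56, H2-Ab1 by 0.51, H2-Eb1 by 0.61, Cd74 by 0.53 and the sum of the 7 genes by 0.54. In interstitial macrophage-like cells the values were 0.76 for H2-Aa, 0.78 for H2-Ab1, 0.82 for H2-Eb1, 0.65 for Cd74 and 0.72 for the sum, and in nonclassical monocyte-like cells 1.40 for H2-Aa, 1.47 for H2-Ab1, 1.94 for H2-Eb1, 0.96 for Cd74 and 1.13 for the sum, although the median nonclassical cell was higher with ventilation at both ages. Venous endothelial-like cells had 1.21 for H2-Aa, 1.36 for H2-Eb1 and 0.85 for the sum. B cell-like cells had 0.35 for Cd74, 0.97 for H2-DMa and 0.33 for the sum, type 2 or migratory dendritic-like cells 0.40 for H2-Ab1 and general capillary-like cells 0.26 for the sum. In all of these the young ventilated library was the lower of its pair. Alveolar macrophage-like cells had negative values, -0.59 for H2-DMb1 and -0.65 for the sum, as the young ventilated library was the higher of its pair. The young median cells of this class lay close together, however. Some of the flagged directions did not hold in all settings. With the UMI limit over passing barcodes, the aged sum, H2-Aa and H2-Eb1 over all retained cells turned negative. The aged sum of interstitial macrophage-like cells did so too. Without an upper limit on UMIs, the young sum of these macrophage-like cells was not below its nonventilated level.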

How the results depend on the processing

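No paired analysis was possible because each group is 1 library and the labels carry no replicate numbers, and for the same reason no library could be left out. For the sum of the 7 genes over all retained cells, the log2 ratios were -0.38 (ventilation, young), 0.16 (ventilation, aged), 0.05 (age, nonventilated) and 0.59 (age, ventilated). In the same order they were -0.43, -0.011, 0.033 and 0.45 with the UMI percentile over passing barcodes, and -0.26, 0.28, 0.069 and 0.61 with no upper limit on UMIs or genes. With each cell thinned to 1000 UMIs they were -0.56, 0.0079, 0.081 and 0.64. Scaling by the median of gene ratios gave -0.36, 0.23 and 0.63 where the value moved beyond its counting interval, the mean of per-cell CPM -0.57, 0.036 and 0.67, and leaving out the highest 5% of Scrublet scores -0.47, 0.12 and 0.64, each for both ventilation contrasts and age in ventilated mice. At most 5% mitochondrial UMIs gave 0.20 for ventilation in aged and 0.0037 for age in nonventilated mice. Leaving out 7 clusters with medians under 4000 UMIs, chosen after seeing the data, gave -0.37 for ventilation in young and 0.58 for age in ventilated mice. Subtracting 5% background RNA moved none of the 4. Of the 10 genes most like the members, 6 were shared with a minimum mean of 10 CPM and 9 with a pseudocount of 1 CPM. With the minimum of 10 CPM, 14.9%, 8.59%, 0.937% and 2.48% of genes were past the fold over all retained cells.

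Of the values past 2-fold in the classes described, none changed sign under the alternatives that gave them, and 17 of 26 were still 2-fold without an upper limit on UMIs, 23 of 28 with the percentile over passing barcodes, and 25 to 28 of 28 under the other settings that kept all 28. Type 2 or migratory dendritic-like cells gave no contrast without an upper limit, at most 5% mitochondrial UMIs or a resolution of 0.5, where their cells mostly joined the interstitial macrophage-like class. Low depth limits Ciita most, with 2 UMIs in the interstitial macrophage-like cells of the young ventilated library.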

Other observations

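Small amounts of Cd74 were found in classes that are not known as class II carriers, and they differed in how many cells held them. In neutrophil-like cells, the first leukocytes to enter inflamed tissue, Cd74 stood at 24.3, 266, 152 and 236 CPM in the 4 libraries, young before aged and nonventilated before ventilated (13, 288, 37 and 309 UMIs), with a ratio of 10.9 with ventilation in young (6.28 to 20.8) and 1.55 in aged mice. After thinning each cell to 1000 UMIs, 0.833%, 16.4%, 5.17% and 19.3% of neutrophil-like cells held a Cd74 UMI, against 1.46%, 3.92%, 1.74% and 2.70% of adventitial fibroblast-like cells. The median depth of the former was 4000 to 5112 UMIs and of the latter 15734 to 17313. In the aged nonventilated library, 3 cells held 67.7% of the UMIs of the 7 genes in neutrophil-like cells. The shares in both ventilated libraries were thus above those of the fibroblast-like cells. In cells with fewer UMIs the same amount of free RNA makes up a larger part, so the fibroblast-like share is not an equal background here. The part of free RNA in these Cd74 UMIs was not tested.

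Pericyte-like cells, which wrap capillaries, gave another picture. Their Cd74 level was 24.5, 220, 35.9 and 140 CPM, but only 1.94% to 3.53% of the thinned cells held a Cd74 UMI, and 3 cells of the class held 50.0%, 86.0%, 62.3% and 80.9% of the UMIs of the 7 genes. In innate lymphoid-like cells the sum of the 7 genes was 612 CPM in the aged nonventilated library, where 1 cell at 10000 CPM or more held 90.4% of these UMIs.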
